A study of Mus musculus with 12 samples.

Results

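Fibroblast growth factors Fgf6 and Fgf4 and the receptor Fgfr4 were followed in mouse embryonic tongue at day 13.5 (E13.5). These are 3 of 18193 genes with a single-symbol probe set, and every probe set that the platform annotation ties to 1 of their symbols alone was taken, which gave 10 of 45101 probe sets, with 1 for Fgf6, 4 for Fgf4 and 5 for Fgfr4. The study set 6 mutant tongues, genotype Myf5-Cre;Smad4flox/flox, against 6 control tongues, genotype Myf5-Cre;Smad4flox/+, all on the C57BL/6J background and each on its own Affymetrix whole-genome mouse array. Both groups carry the Cre recombinase transgene and at least 1 floxed copy of Smad4, the signal transducer shared by the TGF-β and BMP pathways, so the controls have a working copy fewer in Cre-expressing cells than a wild-type embryo. Cre is made where Myf5 is active, which is chiefly the skeletal muscle lineage, while the RNA came from whole tongue. The labels call the arrays biological replicates and do not say whether embryos were pooled or shared a litter.

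Fibroblast growth factors are secreted proteins that bind receptor tyrosine kinases together with heparan sulfate and switch on the Ras and MAP kinase cascade, which in turn induces feedback inhibitors such as the Sprouty proteins. Fgf4, Fgf5 and Fgf6 form 1 subfamily of ligands. Fgf6 is known for expression that is largely limited to the skeletal muscle lineage of the embryo, Fgf4 for expression in the myotome and in the apical ridge of the limb bud, and Fgfr4 as the FGF receptor of embryonic muscle progenitors and myoblasts. In the tongue these progenitors migrate in from the occipital somites and settle within mesenchyme derived from the neural crest.

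The promoters of the 3 genes are shown because probe sets of each gene were lower in the mutant and myogenic factors such as Myf5 bind E-boxes. Each window runs from 250 bases before to 50 bases after the gene's annotated start in RefSeq, build GRCm38.p6, on the plus strand, at chr6:127015292-127015591 for Fgf6, chr7:144861136-144861435 for Fgf4 and chr13:55152568-55152867 for Fgfr4. Capitals mark E-boxes, the letters CANNTG, which read the same on both strands.
Fgf6: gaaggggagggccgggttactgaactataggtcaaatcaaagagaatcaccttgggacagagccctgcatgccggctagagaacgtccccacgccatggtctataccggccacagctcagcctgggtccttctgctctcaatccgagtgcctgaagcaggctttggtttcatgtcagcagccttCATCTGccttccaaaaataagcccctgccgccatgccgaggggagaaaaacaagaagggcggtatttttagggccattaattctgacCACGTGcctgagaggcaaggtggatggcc
Fgf4: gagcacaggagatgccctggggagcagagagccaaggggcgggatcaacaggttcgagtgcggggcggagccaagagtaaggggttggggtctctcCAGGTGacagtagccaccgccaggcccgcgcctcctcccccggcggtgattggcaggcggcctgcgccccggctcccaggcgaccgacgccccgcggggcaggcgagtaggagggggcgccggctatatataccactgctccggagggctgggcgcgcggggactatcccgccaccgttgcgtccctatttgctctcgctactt
Fgfr4: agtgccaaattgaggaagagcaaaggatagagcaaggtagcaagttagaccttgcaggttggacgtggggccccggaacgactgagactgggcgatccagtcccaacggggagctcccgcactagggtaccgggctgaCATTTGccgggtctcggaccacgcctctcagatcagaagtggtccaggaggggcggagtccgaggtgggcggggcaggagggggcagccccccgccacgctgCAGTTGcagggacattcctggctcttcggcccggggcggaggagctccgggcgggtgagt
The Fgf6 window held 2 E-boxes, beginning 66 bases before the start and at base 22 of the transcript. That of Fgf4 held 1, beginning 154 bases before the start, and that of Fgfr4 held 2, beginning 112 and 10 bases before it. At least 1 E-box was present in 72.3% of 32841 RefSeq promoter windows of the same length and at least 2 in 39.6%. The short SMAD box CAGAC, searched on both strands, was in none of the 3 windows and in 49.6% of all windows. Binding of any factor to these windows was not tested.

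Smad4 itself did not separate the groups. Its brightest probe set, 1422487_at, read 11.58 on mutant 1 and 12.18 to 12.30 on the other mutants, against 12.16 to 12.35 on the controls (difference −0.15 ± 0.10 SE, limma adjusted p = 0.523). No source used here places its probes relative to the floxed part, so this does not check the genotype. The arrays' medians lay between 6.09 and 6.17. Several arrays stood apart in other ways: on the first principal component of all probe sets, mutants 1 and 2 lay farthest from the controls, at 33.1 and 26.9. The other mutants ranged over 5.22 to 18.6 and the controls over −23.6 to −13.5. Control 3, mutant 4 and mutant 6 carried signal of both Xist and Y-linked genes, and control 6 and mutant 6 had the lowest 18S ribosomal RNA signal. Results are therefore also given without these arrays. Sarcomere genes marked the tissue as holding muscle, with a mean log2 signal over 30 genes of 10.63 to 11.03 on the mutant arrays and 11.24 to 11.82 on the control arrays.

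All values below are log2 signals made by the authors with RMA, which pulls the changes of dim probe sets towards 0, and differences are mutant minus control on that scale with n = 6 arrays in each group. Of the 10 probe sets, 6 were lower in the mutant past an adjusted p of 0.05 over all probe sets, none was higher and 4 did not pass. Over all 45037 probe sets tested, 2.70% were lower and 2.70% were higher by the same rule, 5.40% in all. On 5 of the 10, every mutant lay below every control, as did 1.93% of all probe sets. The genes were chosen with earlier results of these data known, so the count over the members is a description.

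**Figure D1:**
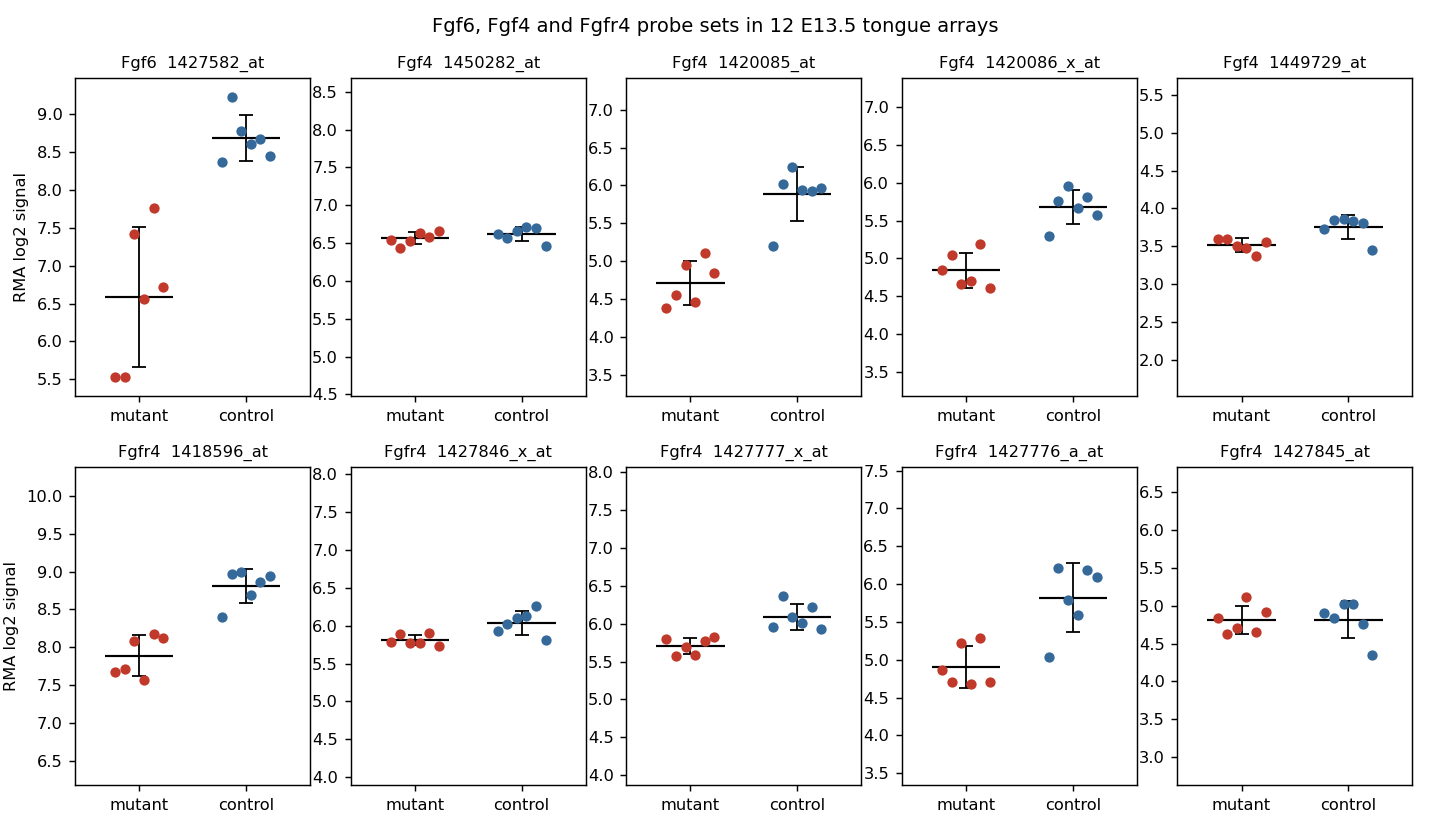
RMA log2 signal (y axis, 4.2 units high in each panel) of the 10 probe sets of Fgf6, Fgf4 and Fgfr4 on 6 mutant (red, left) and 6 control (blue, right) arrays, with a point for each array, a bar at the mean and whiskers of 1 SD. Every mutant lies below every control for Fgf6, for Fgf4 probe sets 1420085_at and 1420086_x_at and for Fgfr4 probe sets 1418596_at and 1427777_x_at.

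Fgf6 had the largest difference of the members. Its only probe set, 1427582_at, read 5.52, 5.53, 7.42, 6.56, 7.76 and 6.72 on mutants 1 to 6, against 8.37, 9.23, 8.78, 8.60, 8.68 and 8.45 on controls 1 to 6. Every mutant was below the lowest control, and the mutants were spread far more widely, with mutants 1 and 2 lowest and mutants 3 and 5 nearest to the controls. The mean was 6.59 ± 0.93 in mutants and 8.68 ± 0.30 in controls (SD), a difference of −2.10 ± 0.34 (SE), 4.28-fold lower (adjusted p = 0.00287). Because the spread was so unequal, a test that lets each group have its own variance left the adjusted p at 0.0565. Without mutants 1 and 2 the difference was −1.57 (adjusted p = 0.00643). It was −2.11 without control 3, mutant 4 and mutant 6 (0.0428) and −2.17 without control 6 and mutant 6 (0.0106).

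The probe sets of Fgf4 fell into those that were lower in the mutant and those near the same level, and the division went partly with their design. In the platform annotation, 1450282_at comes from the RefSeq mRNA record of Fgf4, while 1420085_at, 1420086_x_at and 1449729_at all come from a single other GenBank record. The probe sequences are not used here, so which part of the gene each of them reads was not examined.

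The probe set of the RefSeq record was flat. On 1450282_at the mutants read 6.54, 6.43, 6.53, 6.64, 6.58 and 6.66, against 6.62, 6.57, 6.66, 6.72, 6.70 and 6.45 on the controls. The groups overlapped almost fully, with a difference of −0.06 (95% interval −0.18 to 0.07, adjusted p = 0.704). The interval reaches a fall of 0.18 in the signal of this probe set, which does not bound a change of Fgf4 RNA. Whether the probe set detects Fgf4 RNA in this tissue was not examined. This probe set is brighter than 55.4% of all probe sets on the array.

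The probe sets 1420085_at and 1420086_x_at were both lower in the mutant. The first read 4.38, 4.55, 4.94, 4.46, 5.10 and 4.85 on the mutants, against 5.20, 6.02, 6.25, 5.93, 5.93 and 5.97 on the controls. Control 1 was lowest among controls and lay just above mutant 5, the highest mutant. The difference was −1.17 ± 0.16 (SE), 2.25-fold lower (adjusted p = 0.00126). On 1420086_x_at the mutants lay between 4.61 and 5.20 and the controls between 5.30 and 5.95, again without overlap (−0.83 ± 0.12, 1.78-fold lower, adjusted p = 0.00137). The suffix _x marks probes that can bind more than 1 transcript, so part of that signal may not be of Fgf4. Both are dimmer than the median probe set (6.13), and both kept their calls without each of the 3 sets of arrays named above.

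The last Fgf4 probe set, 1449729_at, was among the dimmest on the array, brighter than only 9.96% of probe sets. Mutants lay between 3.37 and 3.60 and controls between 3.45 and 3.86, with control 6 low. The difference of −0.24 ± 0.07 (SE) did not pass (adjusted p = 0.0781), while without control 6 it was −0.30 and passed (0.00868). The disagreement among Fgf4 probe sets was known from these data when the members were chosen, so its p-values are descriptive. It was tested on each array as the distance from 1450282_at. That distance differed between genotypes by −1.11 for 1420085_at and by −0.78 for 1420086_x_at, and for each of these it was below every control on 6 of 6 mutants (exact 2-sided permutation test over arrays, adjusted p = 0.00325 over 3 tests). For 1449729_at it differed by −0.18 (adjusted p = 0.0325), which 1 array could undo: leaving out control 2, for example, gave −0.15 (adjusted p = 0.0649).

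**Figure D2:**
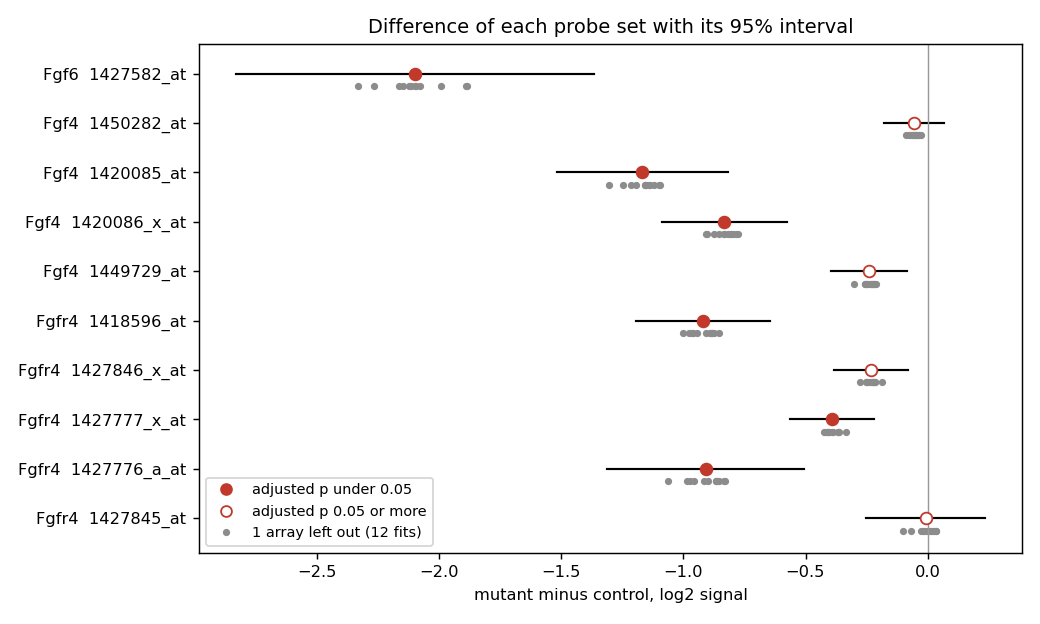
Mutant minus control difference of log2 signal (x axis) for the 10 probe sets, with the 95% interval of the limma fit as a line, filled points where the adjusted p is under 0.05 and grey points for the 12 fits that leave out 1 array each. Fgf6 stands at −2.10, Fgf4 1420085_at at −1.17 and Fgfr4 1418596_at at −0.92, while Fgf4 1450282_at and Fgfr4 1427845_at lie at −0.06 and −0.01.

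Fgfr4, the receptor, was lower in the mutant on its brightest probe set, 1418596_at, which comes from the RefSeq mRNA record. It read 7.67, 7.72, 8.09, 7.57, 8.17 and 8.12 on the mutants, against 8.40, 8.96, 8.99, 8.69, 8.87 and 8.94 on the controls. Every mutant was below every control, and the spread was alike in both groups, 0.27 in mutants and 0.23 in controls (SD). The difference was −0.92 ± 0.13 (SE), 1.89-fold lower (adjusted p = 0.00121). Without mutants 1 and 2 it was −0.82 (adjusted p = 0.0117), without control 3, mutant 4 and mutant 6 −0.86 (0.0185), and without control 6 and mutant 6 −0.94 (0.00445).

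The other Fgfr4 probe sets are dimmer and come in pairs from 2 further GenBank records. From the first of these, 1427776_a_at lay between 4.67 and 5.29 on the mutants, against 5.04 to 6.22 on the controls, overlapping through control 1 alone. It differed by −0.91 ± 0.19 (SE, adjusted p = 0.0120), close to the value of the brightest probe set. Its partner 1427777_x_at lay between 5.57 and 5.82 on the mutants and between 5.94 and 6.37 on the controls (−0.39 ± 0.08, adjusted p = 0.0108). Both calls ended without mutants 1 and 2 (−0.85, adjusted p = 0.0876, and −0.38, 0.0608) and without control 3, mutant 4 and mutant 6 (−0.80, 0.121, and −0.39, 0.0756), with fewer arrays tested. That of 1427776_a_at also ended with unequal variances (0.0688).

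From the second record, 1427846_x_at lay between 5.73 and 5.90 on the mutants and between 5.81 and 6.26 on the controls (−0.23 ± 0.07 SE, adjusted p = 0.0778), and passed without control 6 (−0.28, 0.0251). Its partner 1427845_at was flat, at 4.63 to 5.11 on the mutants and 4.35 to 5.02 on the controls (−0.01, 95% interval −0.25 to 0.23, adjusted p = 0.983). Measured as distances from 1418596_at on each array, 3 of the other 4 probe sets differed between genotypes, by 0.53 to 0.91, so they fell less or not at all (exact 2-sided permutation test, adjusted p = 0.00541 for each over 5 tests). The exception was 1427776_a_at, at 0.01 (adjusted p = 0.937). These p-values too are descriptive, since the unequal differences of the Fgfr4 probe sets had already been seen. RMA also pulls the changes of the dimmer probe sets towards 0.

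The Fgf6 probe set fell further than the brightest probe set of the receptor. The distance between the signals of 2 probe sets carries no meaning of its own. Its shift between genotypes compares the 2 probe sets, and probe sets of a single gene, Fgfr4, also shifted unequally. A difference between the RNAs themselves was therefore not shown. The level of Fgf6 minus that of Fgfr4 (1418596_at) on the same array was −2.14, −2.18, −0.67, −1.01, −0.41 and −1.41 on mutants 1 to 6, against −0.03, 0.26, −0.21, −0.09, −0.19 and −0.49 on controls 1 to 6. It was below every control on 5 of 6 mutants, with mutant 5 the exception. The difference of −1.18 passed the exact permutation test (adjusted p = 0.00541 over 5 tests). Without mutants 1 and 2 it was −0.75 (adjusted p = 0.0179), so these arrays set much of its size.

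Muscle genes as a whole were lower in the mutant tongue, and in whole-tissue RNA fewer muscle cells and less RNA per cell cannot be told apart. Each member was therefore also set against muscle RNA on its own array, once as the mean of 30 sarcomere genes, of which 26 fell and none rose, and once as the mean of 6 progenitor and myogenic factors, of which 5 fell and none rose. By brightest probe set, 3.84% of 18193 genes were lower and 4.39% higher. The factors were Myf5 (−1.81), Pax7 (−1.35), Myf6 (−0.97), Myod1 (−0.74), Myog (−0.72) and Pax3 (0.25, adjusted p = 0.219). The Myod1 call (adjusted p = 0.0471) and that of Myf6 (0.0194) both ended without mutants 1 and 2 (0.0618 and 0.119), and that of Myod1 also in 9 of the 12 fits without 1 array. Both also ended without control 6 and mutant 6 (0.0797 for Myod1 and 0.0550 for Myf6). Without control 3, mutant 4 and mutant 6 the call of Myog ended too (0.0602), beside those of Myod1 (0.154) and Myf6 (0.115), while Myf5 and Pax7 passed without each of the 3 sets.

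On its only probe set, Fgf6 fell further than the mean of either muscle list. Relative to the sarcomere mean it stood at −4.25 ± 0.87 in mutants and −2.91 ± 0.21 in controls (SD, n = 6 each), a difference of −1.34, and relative to the myogenic factors the difference was −1.21. In both cases all 6 mutants lay below all controls (exact 2-sided permutation p = 0.00216, the smallest the design allows, adjusted p = 0.00541 over 20 tests). Without mutants 1 and 2 these were −0.82 and −0.85 (adjusted p = 0.0106 for each), so the distance from the list means was smaller on the remaining mutants. Single muscle genes came closer to Fgf6 than the means, which also hold Pax3 and bright probe sets that moved little, such as that of the cardiac actin Actc1 (14.51 in mutants and 14.67 in controls). Myf5 stood at −1.81 and the troponin Tnnt3, named after its value was seen, at −1.51, against −2.10 for Fgf6. Without mutants 1 and 2, Myf5 was at −1.53 and Fgf6 at −1.57, and a difference between Fgf6 and any single muscle gene was not tested. With the median of the sarcomere genes in place of the mean it was −1.06 (adjusted p = 0.0216).

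On its brightest probe set Fgfr4 was not shown to differ from the muscle genes, while some dimmer ones fell less or not at all. The brightest differed by −0.16 relative to the sarcomere mean (exact permutation test, adjusted p = 0.231) and by −0.03 relative to the myogenic factors (adjusted p = 0.807), and neither passed. Against the median of the sarcomere genes the first was 0.12, of the other sign (adjusted p = 0.289). For Fgf4 1420085_at the corresponding differences were −0.41 (adjusted p = 0.0133) and −0.28 (0.0557). The first did not hold without mutants 1 and 2 (−0.29, adjusted p = 0.0748) or with the median of the sarcomere genes (−0.12, adjusted p = 0.502), and the second passed without control 1 (−0.36, adjusted p = 0.00618). Fgf4 1420086_x_at differed by −0.07 and 0.06, and neither passed (adjusted p = 0.586 and 0.806). Probe sets that were flat or fell less than the muscle genes gave positive values relative to the sarcomere genes and the factors. These were 0.71 and 0.84 for Fgf4 1450282_at and 0.52 and 0.65 for 1449729_at. For Fgfr4 they were 0.53 and 0.66 on 1427846_x_at, 0.37 and 0.50 on 1427777_x_at and 0.755 and 0.88 on 1427845_at. Each passed (exact permutation test, adjusted p = 0.00541 to 0.0108). The lists had already been seen to fall and these probe sets to move less, so that outcome was largely set in advance. It restates the fall of the lists. Fgfr4 1427776_a_at differed by −0.15 and −0.02, and neither passed (adjusted p = 0.419 and 0.920).

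**Figure D3:**
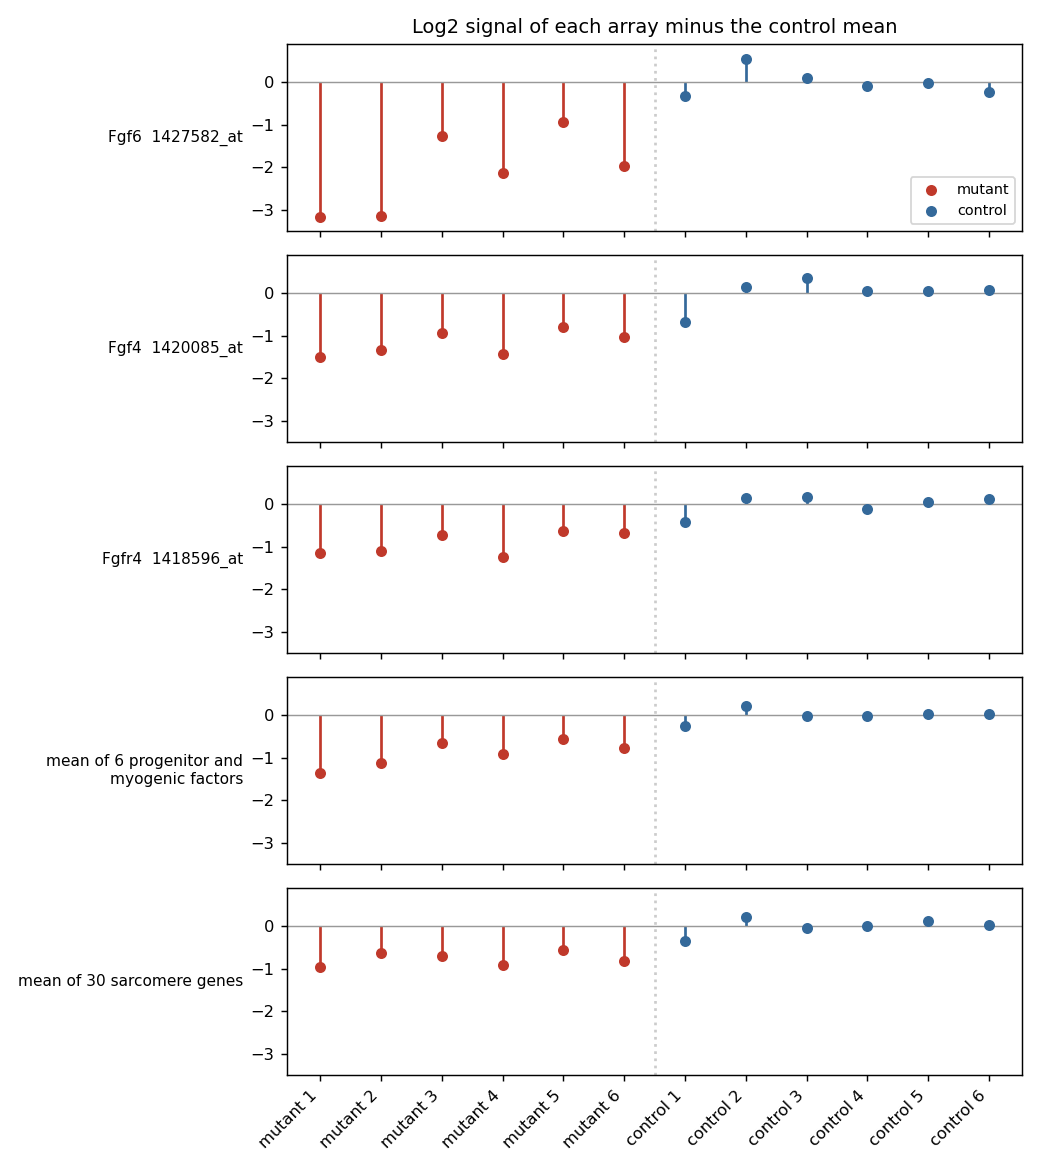
Log2 signal minus the control mean (y axis) on each of 6 mutant (red) and 6 control (blue) arrays, for Fgf6, Fgf4 1420085_at and Fgfr4 1418596_at and for the means of 6 progenitor and myogenic factors and of 30 sarcomere genes. Mutants 1 and 2 are lowest for Fgf6 and for the myogenic factors (−1.35 and −1.13), whereas the sarcomere mean is lowest on mutants 1 and 4 (−0.96 and −0.92).

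In deviations from genotype means, taken over both groups together, Fgf6 went with the myogenic factors more than with the sarcomere genes. The mutants weigh most in this, since the SD of Fgf6 was 0.93 in mutants and 0.30 in controls. The contrast is not shown for the controls alone. Over 12 arrays, deviations of Fgf6 from its genotype means correlated at r = 0.93 with those of the factors' mean and at 0.45 with those of the sarcomere mean. The factors' mean stood at −1.35, −1.13, −0.65, −0.90, −0.55 and −0.76 relative to the control mean on mutants 1 to 6, the same order as Fgf6 over the mutants. For Fgfr4 1418596_at the 2 values were 0.78 and 0.69, and for Fgf4 1420085_at 0.77 and 0.75. These are descriptions of 12 arrays that share tissue makeup and processing, and the difference between correlations was not tested. Markers of neurons lay higher on the same mutant arrays, with 9 of 11 past the test and a list mean of 8.37 to 9.21 on mutants against 7.92 to 8.22 on controls, and so did 8 of 12 markers of cranial mesenchyme (9.59 to 9.83 against 9.32 to 9.55). Their part in the members' differences was not tested.

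Genes most like the members were those with the highest correlation of such deviations among 12172 other genes brighter than the median. For Fgf6 they were 2310002L09Rik (r = 0.97, Spearman rho 0.86), Rxrg, a retinoid X receptor (0.97, rho 0.92), Rbm24, a splicing regulator of striated muscle (0.97, rho 0.87), Stum (0.97, rho 0.91) and Cdk5r1, an activator of the kinase Cdk5 (0.96, rho 0.89). All 5 were lower in the mutant past the test, by 0.44 to 1.54 on the log2 scale.

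For Fgf4 1420085_at the list was Fzd8, a Wnt receptor (r = 0.96), Gamt, an enzyme of creatine synthesis (0.94), Tmem120b (0.93), Pepd, a dipeptidase (0.93), and Fgfr4 itself (0.92, rho 0.94). The Fgf4 probe set and the receptor thus ran together within both groups, at r = 0.95 over the 6 mutants and 0.93 over the 6 controls. Control 1 was the lowest control on both (5.20 and 8.40, with the next at 5.93 and 8.69). The correlation over controls without it was not computed. For Fgfr4 1418596_at the list was Fzd8 (0.96), the ankyrin Ank1 (0.94), Gm266 (0.94), Ttyh2 (0.94) and Gamt (0.92), so Fzd8 and Gamt stood on both lists. Fgf6 was less like either, at 0.67 with Fgf4 1420085_at and 0.68 with Fgfr4. By contrast, the flat Fgf4 probe set 1450282_at correlated at 0.09 with 1420085_at and at 0.79 with the flat Fgfr4 probe set 1427845_at. The lists were picked as the highest of many values on 12 arrays, so no p is given.

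Other genes of the FGF pathway changed in both directions. Of 74 other genes listed, 67 had a single-symbol probe set, of which 10 were lower and 7 higher in the mutant, against 3.84% and 4.39% of all genes. These counts leaned on particular arrays: without mutants 1 and 2 they were 6 and 1, without control 3, mutant 4 and mutant 6 they were 4 and 2, and without mutant 4 alone they were 8 and 4. The calls of Fgf5, Fgfr2, Grb2, Spry1 and Spry2 held without each of the 3 sets of arrays, and those of the other genes ended without at least 1 of them.

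**Figure D4:**
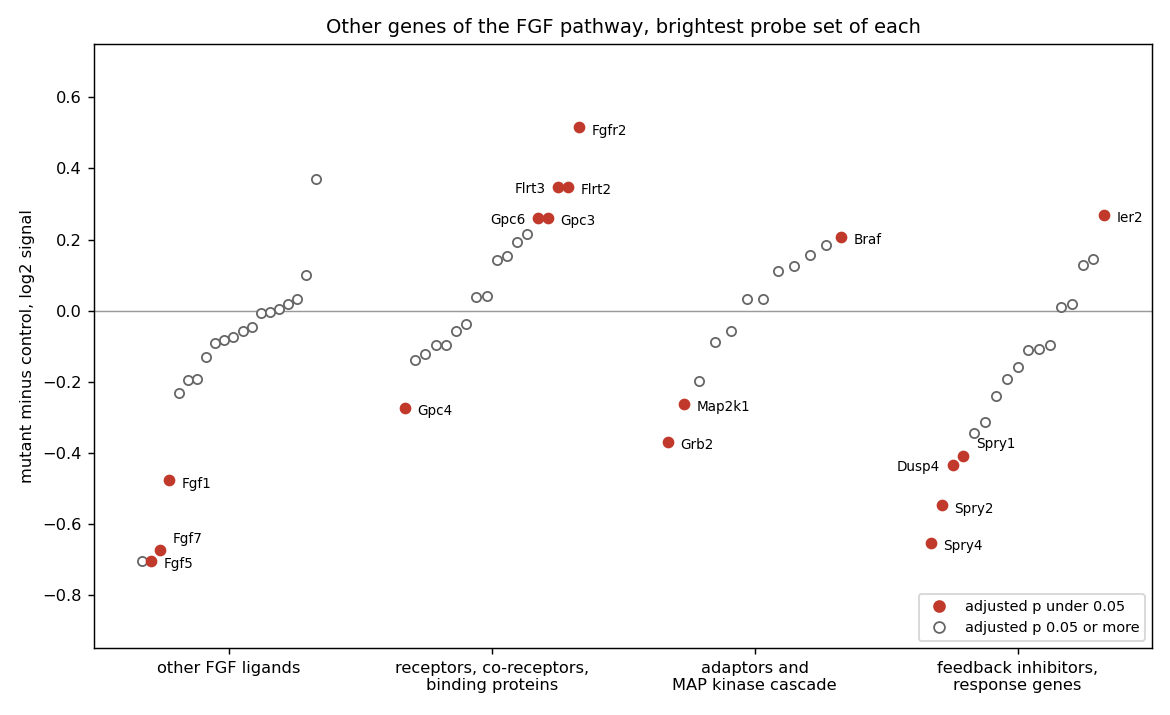
Mutant minus control difference of log2 signal (y axis) for 67 other genes of the FGF pathway by their brightest probe set, in 4 groups along the x axis, each sorted by its difference, with filled and named points where the adjusted p is under 0.05. Among the ligands, 3 fall and none rise, and the only higher gene of the feedback group is Ier2, at 0.27.

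Of 20 other ligands, 3 fell and 0 rose, and the median difference was −0.08, against 0.01 over all genes. Fgf5, the remaining member of the Fgf4 and Fgf6 subfamily, read 4.94 ± 0.05 in mutants and 5.64 ± 0.34 in controls, all 6 mutants below all controls (SD, −0.70 ± 0.13 SE, adjusted p = 0.00496). It is dim, and its other probe set, dimmer still, did not pass (−0.13). Fgf7, a ligand made by mesenchyme that acts on epithelium, fell to 9.08 ± 0.26 in mutants, against 9.76 ± 0.24 in controls (−0.67, adjusted p = 0.00722), and its other probe set fell by 0.61. The call ended without control 3, mutant 4 and mutant 6 (−0.52, adjusted p = 0.0602). Fgf1 fell by 0.48 (adjusted p = 0.0260), a call that 6 of the 12 fits without 1 array did not keep. Its other probe sets, at −0.28 and −0.16, did not pass (adjusted p = 0.200 and 0.178). The bright ligands Fgf13, which acts inside cells, and Fgf18 stood at −0.19 and 0.37 and did not pass (adjusted p = 0.181 and 0.168). Fgf9, named after its value was seen, was below every control on 6 of 6 mutants at −0.70 but varied more in mutants (SD 0.55 against 0.05) and did not pass (adjusted p = 0.0523).

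Of 18 other receptors, co-receptors and binding proteins 5 rose and 1 fell, with a median of 0.09. Fgfr2, a receptor with epithelial and mesenchymal splice forms, rose to 9.98 ± 0.19 in mutants, against 9.46 ± 0.13 in controls (SD, 0.52, adjusted p = 0.00433), and did so on 6 of 6 mutants. Its 2 other probe sets differed by 0.27 and −0.02 and did not pass. The adhesion proteins Flrt2 and Flrt3, which bind FGF receptors, rose by 0.35 each, and the glypicans Gpc3 and Gpc6, heparan sulfate proteoglycans, by 0.26 each, while Gpc4 fell by 0.27. Other probe sets passed only in part. For Flrt2 that at 0.33 passed and that at 0.12 did not, and for Flrt3 that at 0.35 passed. For Gpc6 that at 0.50 passed and those at 0.10, 0.31 and 0.22 did not, nor did that of Gpc4 at −0.20. The glypican Gpc1, the brightest of those that did not pass, stood at −0.06. Fgfr1 read 10.88 in mutants and 10.92 in controls (adjusted p = 0.850) and Fgfr3 read 8.69 and 8.48 (adjusted p = 0.393). Without mutants 1 and 2, Fgfr2 kept its call (0.44, adjusted p = 0.0388) and the other 5 did not.

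Of 12 measured adaptors and kinases of the Ras and MAP kinase cascade 2 fell and 1 rose, with a median of 0.03. The adaptor Grb2 fell by 0.37 (adjusted p = 0.00265) and the kinase Map2k1 by 0.26 (0.0420), while Braf rose by 0.21 (0.0387). A second Grb2 probe set did not pass (−0.08), and neither did any other Braf probe set, at 0.005 to 0.20. The brightest genes of the list were Ptpn11 (0.03), Nras (−0.06) and Map2k2 (0.03), a phosphatase, a Ras protein and a kinase, and none passed. The calls of Map2k1 and Braf ended in 9 and 10 of the 12 fits that left out 1 array.

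Of 17 feedback inhibitors and response genes 4 fell and 1 rose, with a median of −0.16. Of the Sprouty inhibitors 3 were among those that fell, and Spry3, which is dim, stood at 0.02 (adjusted p = 0.938). Spry1 fell to 10.39 ± 0.09 in mutants, against 10.80 ± 0.08 in controls (SD, −0.41, adjusted p = 0.00121), Spry2 by 0.55 (adjusted p = 0.00412) and Spry4 by 0.65 (0.0187). The MAP kinase phosphatase Dusp4 fell by 0.43 (adjusted p = 0.0160) and the early response gene Ier2 rose by 0.27 (0.0375), a call that ended in 10 of the 12 fits without 1 array. The second probe set of Spry2 did not pass (−0.24, adjusted p = 0.287). Of the other probe sets of Spry4, 1 fell by 0.40 (adjusted p = 0.0201) and those at −0.19 and −0.36 did not pass (0.359 and 0.0773). Dusp4 lost its call without control 3, mutant 4 and mutant 6 (−0.44, adjusted p = 0.105) and without control 6 and mutant 6 (−0.42, 0.0513). Spry4 lost its call without mutant 1 (−0.60, adjusted p = 0.0501), without mutants 1 and 2 (−0.51, 0.128) and without control 3, mutant 4 and mutant 6 (−0.68, 0.0807). The cell cycle gene Ccnd1 and the Ras inhibitor Spred2, both bright, stood at 0.15 and −0.11 without passing. Dusp6, a MAP kinase phosphatase often read as an FGF response, read 11.53 in mutants and 11.73 in controls (adjusted p = 0.0842), and Etv4 and Etv5, transcription factors induced by FGF, differed by −0.34 and −0.31 without passing (0.0923 and 0.141).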

How the data were processed

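The authors deposited log2 signals per probe set. Per the submitters' processing notes, RMA was used. RMA corrects background, normalises arrays to a common distribution and combines the probes of a set. No source used here names its software or version, and base 2 was taken from the range of 2.57 to 15.09. No further normalisation was applied. Arrays give no counts, so precision rests on how many arrays there are.

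The fit leaves out 64 of the 45101 probe sets, which are array controls. Symbols came from the platform annotation, and a gene outside the members was represented by its brightest single-symbol probe set. Genotypes were compared in R 4.3.3 by limma's moderated linear model, version 3.58.1 (2-sided, with only genotype in the design, Benjamini-Hochberg over 45037 probe sets, threshold 0.05), and the fit was tested on simulated data. Differences between probe sets, or from a list mean, were compared by exact 2-sided permutation of the arrays' genotypes, over 924 arrangements, with Benjamini-Hochberg adjustment within each family of tests. Replicates are those of the labels, and p-values measure the spread between these samples only.

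The members, gene lists, tests and arrays left out were chosen with earlier results of these data known. Named genes are every member probe set, every passing gene of the FGF lists and the 3 brightest of each, Fgf5, Smad4, 6 muscle factors and, for 1 probe set of each member, the 5 genes with the most similar deviations. Fgf9, Fgfr1, Fgfr3, Spry3, Etv4, Etv5, Actc1 and Tnnt3 were named after their values were seen. The remaining marker lists, with passing genes lower and higher in the mutant, were glia (1 and 2 of 5), oral epithelium (0 and 4 of 11), cartilage and bone (0 and 4 of 9), tendon (1 and 0 of 5), endothelium (0 and 1 of 10), macrophages (0 and 0 of 10), erythroid cells (0 and 0 of 6) and sex-linked genes (0 and 0 of 4). Alternatives covered normalisation, dim probe sets, the variance model, array weights, a sex covariate, the replicate number and arrays left out.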

Additional observations from a re-analysis of the deposited data

Results flagged for a closer look

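Of 72 groups of 6 arrays checked over the named probe sets, 7 held an array far from the other 5 of its genotype, and chance flags about 1 in 20 groups. Among the members these were Fgf4 1420085_at on control 1, at 5.20 with the next control at 5.93, and Fgf4 1449729_at on control 6, at 3.45 with the next at 3.72. Control 1 was also the low array for Myf6, at 6.89 with the next control at 7.96. All 3 Smad4 probe sets were low on mutant 1, at 9.89, 11.32 and 11.58 with the next mutant at 10.60, 12.05 and 12.18. Flrt2 was low on control 3, at 11.41 with the next at 11.58.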

How the results depend on the processing

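Fgf6, Fgf4 1420085_at and 1420086_x_at and Fgfr4 1418596_at kept direction and call in each of the 12 fits without 1 array and without each of the 3 sets of arrays, and Fgf6 lost its call only with unequal variances (−2.10, adjusted p = 0.0565), as did Fgfr4 1427776_a_at (−0.91, 0.0688). Fgfr4 1427776_a_at also lost it without mutants 1 and 2 (−0.85) and without control 3, mutant 4 and mutant 6 (−0.80), as did 1427777_x_at (−0.38 and −0.39). Without control 6 and mutant 6, Fgf4 1449729_at (−0.31) and Fgfr4 1427846_x_at (−0.26) passed, and over single arrays left out these ran from −0.30 to −0.21 and from −0.28 to −0.19. Genes of the pathway lists passing, 10 lower and 7 higher, numbered 6 and 1 without mutants 1 and 2, and 4 and 2 without control 3, mutant 4 and mutant 6. Over single arrays left out they ran from 7 to 12 and from 4 to 7. All probe sets passing fell to 557 lower and 314 higher without mutants 1 and 2, to 402 and 363 without control 3, mutant 4 and mutant 6, and to 806 and 655 without mutant 1. Higher probe sets numbered 703 without mutant 2 and 719 without mutant 4. Fgf4 1420085_at relative to sarcomere genes did not pass without mutants 1 and 2 (−0.29) or with the list's median (−0.12), and relative to the myogenic factors it ran from −0.36 to −0.20 with single arrays left out. The distance of Fgf4 1449729_at from 1450282_at was −0.16 with quantile normalisation (adjusted p = 0.0606) and −0.23 to −0.15 with single arrays left out. Apart from the smaller number of arrays in some settings, the cause was not tested.

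Groups share replicate numbers, and deviations of same-numbered arrays correlated over 0.1 in 5 of 6 pairs (−0.08 to 0.28). Control 6 and mutant 6 also had the lowest 18S signal. The labels do not call the numbers pairs, so the main fit and the main permutation tests did not use them. A shared batch or litter was not tested. With the number as a replicate block, 6 member probe sets passed as before, Fgf6 at −2.10 (adjusted p = 0.00622), and the pathway counts were 11 lower and 5 higher. RMA and the dimness of most Fgf4 and Fgfr4 probe sets limit what small differences can be seen.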
